A study of Rattus norvegicus with 12 samples.

Results

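The cytosolic ribosome is built from ribosomal RNA and a set of proteins encoded by the Rps genes (small subunit) and the Rpl and Rplp genes (large subunit). Members of this family were taken by symbol from the table of raw counts: Rps or Rpl with a number and an optional a, x or y, plus Rplp0, Rplp1, Rplp2 and Rpsa. The rule found 78 of 24648 rows, with 32 small subunit rows and 46 large subunit rows. They carry 77 distinct symbols, because Rps19 stands on 2 rows, which were kept apart. All 78 rows passed the filter on low counts, so the family enters every comparison whole, among 14225 genes tested.

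RNA was sequenced from skeletal muscle of male rats at 540 days of age, which were offspring of dams given either a protein-restricted or a control diet while pregnant and lactating. The 12 libraries form 4 groups of 3, named here by the number in each title. Restriction libraries 32, 33 and 35 and control libraries 23, 28 and 29 make up set 2. Restriction libraries 12, 13 and 15 and control libraries 3, 8 and 9 make up set 1. Soleus and extensor digitorum longus are the muscles named in the series text. No label says which of them a library came from, so the groups are called set 1 and set 2. What the offspring were fed after weaning is not given in the labels. No dam, litter or animal is named, so libraries of a group could be littermates, a library of each set could come from 1 animal, and p-values measure only how far these libraries differ, in part perhaps for technical reasons. The muscle genes Acta1, Ckm, Des, Ttn, Neb, Myod1, Myog, Cacna1s and Ryr1 were all detected, with a summed level of 89460 to 137900 CPM (counts scaled to library depth, here with TMM factors) across the libraries. The slow-fibre list (Myh7, Tnni1, Atp2a2 and others) was lower in set 2 for 12 of 13 genes, and the fast-fibre list (Myh4, Tnni2, Atp2a1 and others) was higher for 14 of 14. Summed slow-fibre genes reached 10090 to 21810 CPM in set 2, against 104800 to 122900 CPM in set 1. Library totals ran between 22829692 and 38313704 counts.

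Ribosomal protein messenger RNAs are among the most abundant in a cell, and their proteins are needed in equal amounts to build the subunits. In vertebrates most of them begin with a C followed by a stretch of C and T bases, the 5′ terminal oligopyrimidine (TOP) motif, through which the mTORC1 kinase pathway and the RNA-binding protein Larp1 adjust their translation and stability to nutrient supply. Skeletal muscle holds much of the body's protein, and its ribosome content limits how much protein it can make. The genes also have many processed copies in the genome, reverse-transcribed from their messenger RNA, and reads from a member and from its copies are hard to separate.

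The motif is shown here because it is the sequence feature by which the family is best known. RefSeq windows on the build GRCr8 were available for 62 of the 77 symbols, and each stretch below runs from 15 bases before the annotated start to 15 bases from it on, read on the transcribed strand, with the longest run of C or T near the start in capitals. Rpl12, Rps27 and Rps15 were lower in set 2 in the results that follow, and Rpl19 and Rplp1 were not called. Rpl3, Rps4x and Rps12 were also lower, and their longest runs were 5, 5 and 3 bases. The runs of Rpl3 and Rps4x hold the start base.
Rpl12 (chr3:36661925-36661954, plus strand): ggagcaacatccgTCTTTTCggctttcggt
Rps27 (chr2:177964592-177964621, minus strand): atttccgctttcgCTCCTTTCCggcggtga
Rps15 (chr7:10068101-10068130, minus strand): cgctgacaccgCTTCCTTTTCCCagcagcc
Rpl19 (chr10:83519049-83519078, plus strand): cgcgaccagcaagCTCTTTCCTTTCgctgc
Rplp1 (chr8:71290858-71290887, minus strand): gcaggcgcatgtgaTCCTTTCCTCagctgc
Rpl3 (chr7:113507976-113508005, minus strand): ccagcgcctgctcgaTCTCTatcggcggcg
Rps4x (chrX:71342907-71342936, minus strand): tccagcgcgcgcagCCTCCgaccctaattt
Rps12 (chr1:23500060-23500089, plus strand): gcacagaagCCCagcagagcgcttaaatac

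A run of at least 6 C or T bases reaching within 10 bases of the annotated start was present in 50 of the 62 members, or 80.6%, against 30.7% of all 27457 symbols with a window. A run of at least 5 that held the start base itself was present in 39 members, or 62.9%, against 12.5% of all symbols. The median longest run was 10 bases in members and 4 bases over all symbols. Elongation factors and other known TOP genes carried the run of 6 in 11 of 14 windows, and ribosome biogenesis factors in 4 of 33. These are descriptions of annotated starts, which can lie a few bases from the start used in muscle, and no match says only that the letters are not in the window.

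The family took a smaller share of the counts in set 2 than in set 1. It held 1.71%, 1.67% and 1.77% of all counts in restriction libraries 32, 33 and 35 and 2.05%, 1.73% and 1.72% in control libraries 23, 28 and 29 of set 2. In set 1 it held 2.99%, 3.29% and 3.28% in restriction libraries 12, 13 and 15 and 2.98%, 2.70% and 2.83% in control libraries 3, 8 and 9. No library of set 2 reached the lowest library of set 1. Control library 23 was the highest of set 2, and its share had a 95% Wilson interval of 2.05% to 2.06%, which covers counting error only. In TMM-scaled CPM the same library was the highest of its set for 62 of the 78 members. Its TMM factor was 0.815, against 0.982 to 1.02 in the other libraries of set 2, and a lower factor raises CPM. The family summed to 25180 CPM in library 23 and to 16730 to 17640 CPM in those libraries, a wider gap than in shares. Of the counts of library 23, 6.36% were mitochondrial ribosomal and transfer RNA, against 1.97% to 3.77% in the other libraries of set 2. Red blood cell genes summed to 2458 CPM in it and to 391.5 to 925.1 CPM in the other libraries of set 2. Because it stands apart, the family's results that rest on it are given with and without it.

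**Figure D1:**
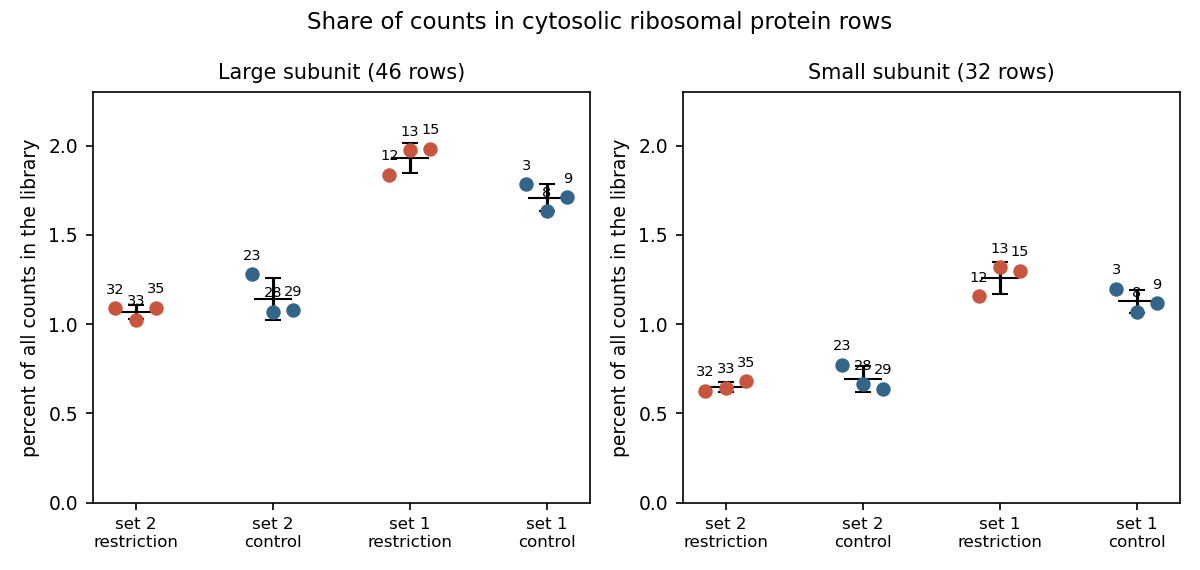
Share of all counts (percent, linear axis from 0) that fell on large subunit rows (left panel) and small subunit rows (right panel) in each of 12 libraries, labelled by title number; bars are the mean ± SD of 3 libraries. Libraries of set 2 hold 1.02% to 1.28% in large subunit rows, against 1.63% to 1.98% in set 1, and control library 23 is the highest of set 2 in both panels.

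The small subunit's part of the family's counts was also slightly lower in set 2. Small subunit rows made up 36.5% to 38.6% of the family's counts in restriction libraries and 37.2% to 38.3% in control libraries of set 2, against 38.6% to 40.1% and 39.5% to 40.2% in the restriction and control libraries of set 1. Every library of set 2 lay below every library of set 1, by a margin that rounding hides.

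Most ribosomal protein transcripts were lower in set 2 than in set 1, averaged over both diets. Of the 78 members, 66 fell at an adjusted p under 0.05 and none rose, also at an unadjusted p under 0.05 (24% of all genes higher), which is 84.6% of the family against 19.6% of all tested genes lower and 19.9% higher (edgeR quasi-likelihood test, Benjamini-Hochberg over all genes). The median log2 fold change was -0.61 over members and -0.01 over all genes, and members spanned -1.004 to 0.06. The small subunit had 29 of 32 members called lower with a median of -0.70, and the large subunit 37 of 46 with a median of -0.53. In linear terms 43 members were at least 1.5-fold lower. All 12 libraries were separated by set, with no overlap, for 36 members (46.2%, against 9.77% of all genes). Without control library 23, 71 members were called lower with a median of -0.70. Calls over all genes rose in that fit too, from 2832 higher and 2788 lower to 3159 and 3291. In whole muscle, fewer cells of a type and less RNA per cell cannot be told apart.

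Scaling by library size alone in place of TMM, which sets a common baseline across genes, moved the median of all genes to -0.11 and the calls over all genes to 2102 higher and 3384 lower, against 2832 higher and 2788 lower under TMM. Under it 72 members were lower and their median was -0.73.

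**Figure D2:**
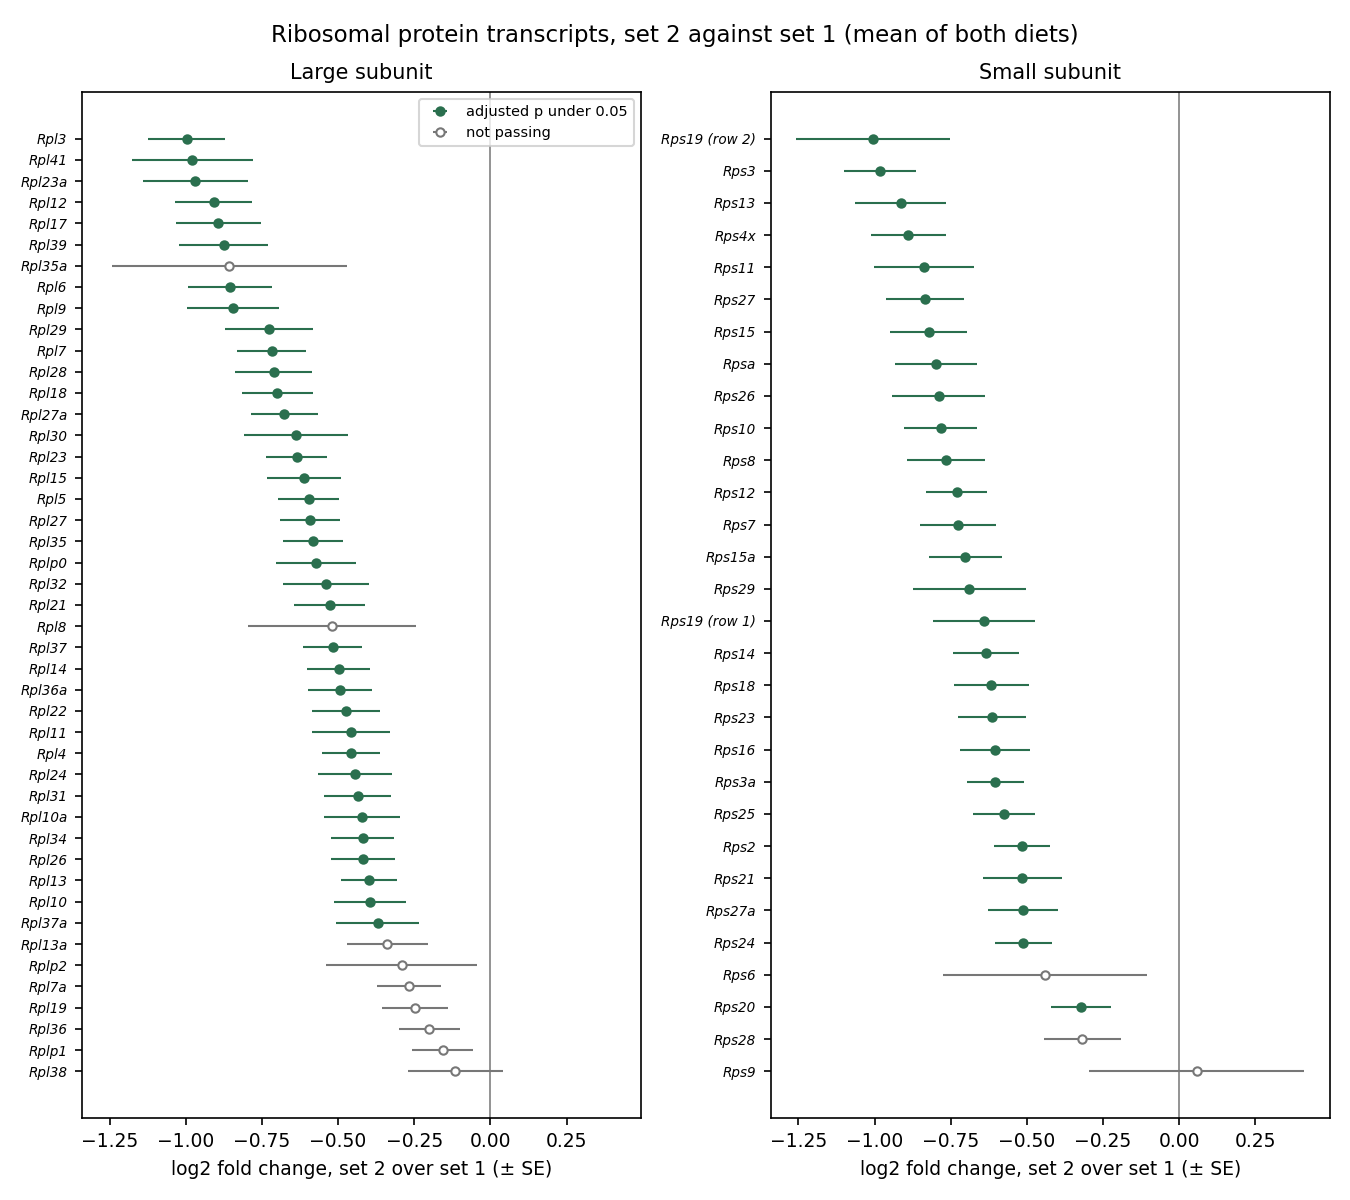
Log2 fold change of set 2 over set 1, averaged over both diets, for 75 of the 78 rows (horizontal axis, points with ± SE), sorted within the large subunit (left panel) and the small subunit (right panel). Filled points pass an adjusted p of 0.05, and all filled points lie left of 0.

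In the small subunit the smallest p-values were those of Rps3, Rps12 and Rps4x. Rps3, which lies at the mRNA entry channel and also acts in DNA repair, had 183, 181 and 194 CPM in restriction libraries and 288, 197 and 185 CPM in control libraries of set 2, against 411, 448 and 400 CPM in restriction libraries and 364, 379 and 413 CPM in control libraries of set 1. All libraries of set 2 lay below all libraries of set 1, and Rps3 was 0.506 times as high in set 2 (log2 fold change -0.98 ± 0.12 SE, adjusted p = 1.87e-05). Rps12, a protein of the head of the small subunit, had 83.9, 76.5 and 83.1 CPM in restriction libraries and 108, 84.0 and 85.5 CPM in control libraries of set 2. It had 139, 154 and 157 CPM in restriction libraries and 139, 128 and 146 CPM in control libraries of set 1, and fell by 0.73 ± 0.10 on the log2 scale (adjusted p = 5.30e-05). Every library of set 2 was again below every library of set 1 for this transcript.

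Rps4x, the X-linked form of the small subunit protein S4, was lower by -0.89 ± 0.12 (adjusted p = 6.33e-05). Rps15 was lower by -0.82 ± 0.13 (adjusted p = 0.000139), Rps27 by -0.83 ± 0.13 (adjusted p = 0.000147) and Rps10 by -0.78 ± 0.12 (adjusted p = 0.000152). Rpsa, which is also known as a laminin receptor, averaged 548 ± 30.5 CPM in restriction and 719 ± 233 CPM in control libraries of set 2, against 1168 ± 33.8 CPM and 1021 ± 19.5 CPM in the restriction and control libraries of set 1 (SD, 3 libraries each). Its control mean in set 2 holds library 23 at 984 CPM and the other two at 624 and 549 CPM. The fold change was -0.80 ± 0.13 (adjusted p = 0.000311). Rps27a, whose product is made as a fusion with ubiquitin, was lower by -0.51 ± 0.11 (adjusted p = 0.00273). Rps19, whose human counterpart is mutated in Diamond-Blackfan anaemia, was lower on both of its rows, by -0.64 ± 0.17 (adjusted p = 0.00739) and -1.004 ± 0.25 (adjusted p = 0.00596).

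In the large subunit Rpl3, a protein close to the peptidyl transferase centre, had 63.4, 51.1 and 68.2 CPM in restriction libraries and 81.5, 69.0 and 65.0 CPM in control libraries of set 2, against 120, 119 and 161 CPM in restriction libraries and 154, 112 and 126 CPM in control libraries of set 1. Even the highest library of set 2 was below the lowest of set 1, and Rpl3 was 0.501 times as high in set 2 (log2 fold change -0.997 ± 0.13, adjusted p = 2.97e-05). Its muscle-enriched paralog Rpl3l, which lies outside the family rule, averaged 560 ± 92.2 CPM in restriction and 694 ± 216 CPM in control libraries of set 2, against 565 ± 52.7 CPM and 594 ± 82.1 CPM in the restriction and control libraries of set 1. The log2 fold change of Rpl3l was 0.11 ± 0.15 and did not pass the test (adjusted p = 0.597); it was -0.05 without control library 23 and -0.02 under library size alone.

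Rpl12, which joins the stalk base where translation factors bind, had 265, 224 and 237 CPM in restriction libraries and 340, 209 and 238 CPM in control libraries of set 2, against 548, 549 and 576 CPM in restriction libraries and 359, 383 and 462 CPM in control libraries of set 1. The sets did not overlap, and the fold change was -0.91 ± 0.13 (adjusted p = 7.16e-05). Rpl5 and Rpl11 bind 5S ribosomal RNA and, when free, the p53 regulator Mdm2. Rpl5 was lower by -0.60 ± 0.10 (adjusted p = 0.000300) and Rpl11 by -0.46 ± 0.13 (adjusted p = 0.0106). Rplp0, which anchors the stalk, was lower by -0.57 ± 0.13 (adjusted p = 0.00338). Its 2 acidic stalk partners that recruit translation factors were not called: Rplp1 averaged 180 ± 7.16 CPM in restriction and 209 ± 7.99 CPM in control libraries of set 2, against 210 ± 9.31 CPM and 223 ± 34.7 CPM in set 1, a fold change of -0.16 ± 0.10 (adjusted p = 0.230). Rplp2 was at -0.29 ± 0.25 (adjusted p = 0.375), with libraries between 17.5 and 53.7 CPM.

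The very short Rpl41, whose peptide sits between the subunits, was lower by -0.98 ± 0.20 (adjusted p = 0.00133), and Rpl39, a protein of the nascent chain tunnel, by -0.88 ± 0.15 (adjusted p = 0.000283). Rpl10, which joins the large subunit late in its assembly, was lower by -0.40 ± 0.12 (adjusted p = 0.0156). Rpl22 was lower by -0.47 ± 0.11 (adjusted p = 0.00386) and Rpl36a by -0.49 ± 0.10 (adjusted p = 0.00187). Among paralogs and fusions outside the rule, 2 of 9 were lower and none was higher, and the lower share is near the 19.6% of all genes that were lower. The lower ones included Rpl22l1, the paralog of Rpl22, at -0.38 ± 0.14 (adjusted p = 0.0462).

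The other 12 rows did not pass, namely 3 in the small subunit (Rps6, Rps9, Rps28) and 9 in the large subunit (Rpl7a, Rpl8, Rpl13a, Rpl19, Rpl35a, Rpl36, Rpl38, Rplp1, Rplp2). Rpl38, which in mouse embryos is needed for translation of Hox messenger RNAs, had 125, 99.1 and 139 CPM in restriction libraries and 195, 119 and 95 CPM in control libraries of set 2. In set 1 it had 153, 169 and 160 CPM in restriction libraries and 128, 120 and 113 CPM in control libraries. The groups overlap, and its fold change was -0.11 ± 0.15 (adjusted p = 0.585). Rps6, the substrate of the S6 kinases, was at -0.44 ± 0.33 (adjusted p = 0.318) and Rpl19 at -0.25 ± 0.11 (adjusted p = 0.0844). Rps9 was the only member above 0, at 0.06 ± 0.35 (adjusted p = 0.914), with libraries between 11.3 and 53.6 CPM in no order by set.

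Several of these rows are thin. Fewer than 1000 counts in every library were recorded for 4 members: Rpl35a at 16 to 109 counts, Rpl8 at 75 to 339, Rps6 at 141 to 680 and Rpl7a at 365 to 738. In the table Rpl35a has 2 rows that RefSeq names as its copies and Rpl8 has 1, and Rps6 and Rpl7a have 0. RefSeq lists 896 loci named as copies of the family, with a median of 11 per symbol and 36 for Rps2. Of these loci 846 are typed as pseudogenes and a further 13 as transcribed pseudogenes. The table held 56 rows that RefSeq names as copies of 38 members. Their counts came to 4.78% to 6.53% of the family's counts in a library. On 4 of them the copy had more counts than its parent: the copy Rps14-ps7 had 1.96 times the counts of Rps14, Rpl8-ps7 had 19.0 times those of Rpl8, and Rpl35a-ps6 and Rpl35a-ps7 had 17.2 and 6.47 times those of Rpl35a.

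Adding each copy row to its member changed few calls, with rows for only 56 of the 896 named copies. With the copies added, 67 members were lower and the median was -0.61. Rpl35a then passed, at -0.80 ± 0.16 (adjusted p = 0.00156, against 0.0943 alone), and Rpl8 did not, at -0.23 ± 0.12 (adjusted p = 0.149). Of 36 copy rows tested on their own, 18 were lower in set 2 and none was higher, with a median of -0.61. Over all tested genes 19.6% were lower and 19.9% higher. How the authors' counting treated reads that match several places is not given in the sources used here, so a member's level is uncertain by what its copies took or gave.

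**Figure D3:**
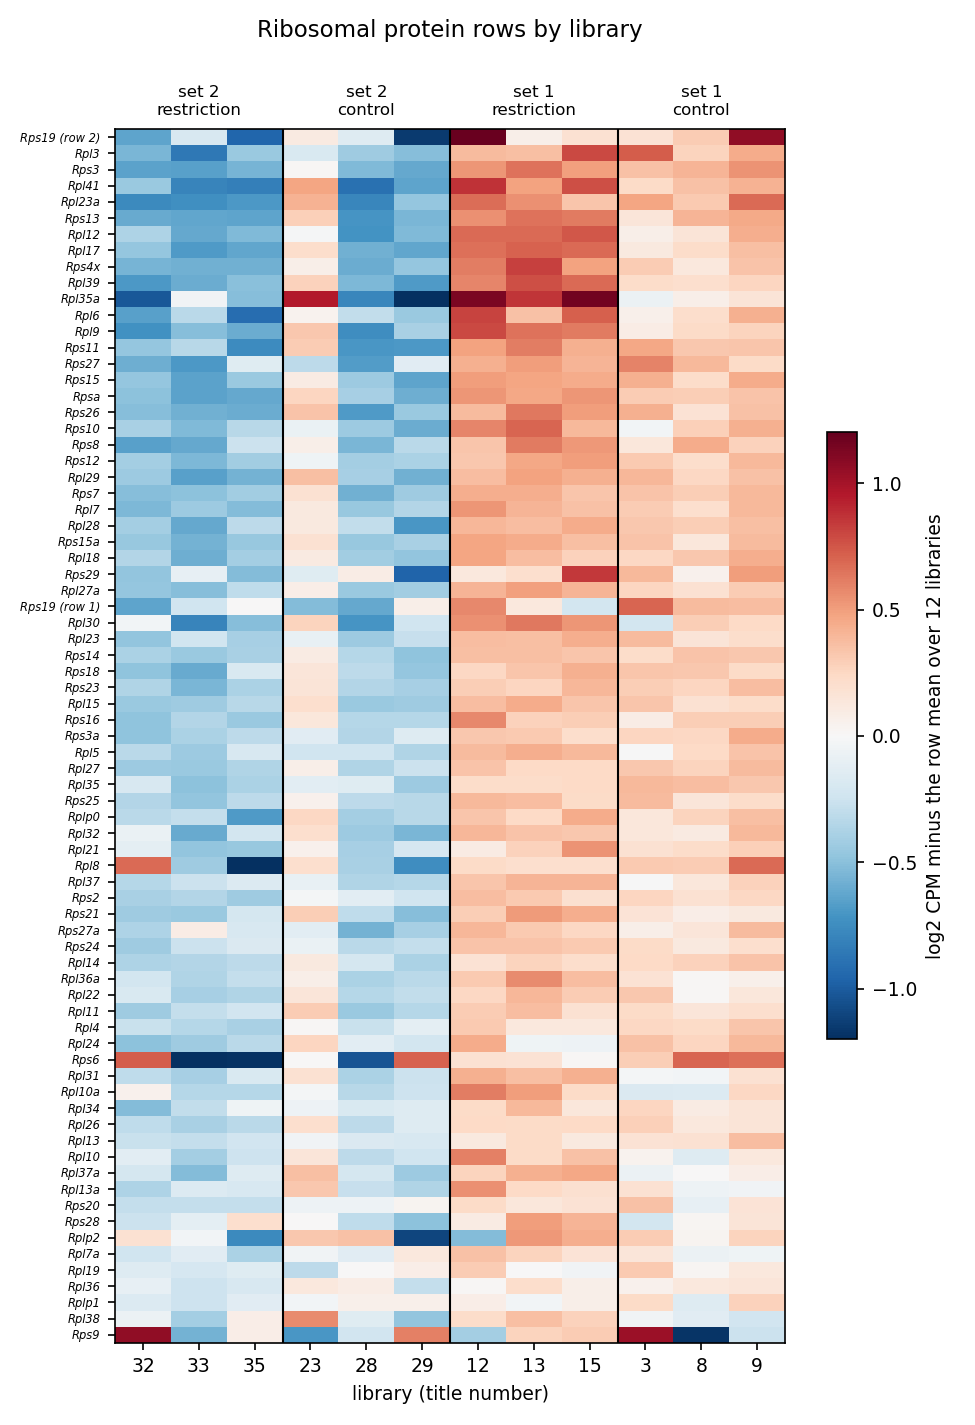
Log2 CPM of 75 of the 78 rows (down, sorted by the fold change of set 2 over set 1, lowest at the top) in the 12 libraries (across, by group), minus the row's mean; red is above and blue below that mean, with the colour scale cut at ±1.2. Set 2 is mostly blue and set 1 mostly red, the column of control library 23 is paler than the other libraries of set 2, and Rps9 scatters with no order by set.

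Within the restriction libraries, 67 of 78 members were lower in set 2 (15% of all genes), with a median of -0.75, and the libraries did not overlap for 72 members (92.3%, against 24.6% of all genes). Within the control libraries, 29 of 78 were lower (10.4% of all genes), with a median of -0.48. Without control library 23, 57 were lower with a median of -0.67, while the genes lower over the whole table rose from 1475 to 1777. The count of 29 also depended on other libraries. Without control library 28 it was 7 and without 29 it was 9. Without control libraries 3, 8 and 9 of set 1 in turn it was 13, 12 and 9. It was 19 and 18 without restriction libraries 13 and 15, which enter only the shared spread and scaling, and fitting the 6 control libraries alone gave 6. Rps3 was lower by -1.18 ± 0.17 within restriction libraries (adjusted p = 0.000185) and by -0.79 ± 0.17 within control libraries (adjusted p = 0.00399). Rpl17 was lower by -1.27 ± 0.20 within restriction libraries (adjusted p = 0.000374) and at -0.52 within control libraries (adjusted p = 0.0799).

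Other genes of protein synthesis did not all move with the ribosomal proteins between the sets. The counts that follow are to be read against the 19.6% of all genes that were lower and the 19.9% that were higher. Of 19 elongation factors and other TOP genes, 14 were lower in set 2 and none was higher, with a median of -0.37. Eef1a1, the elongation factor that brings aminoacyl-tRNA to the ribosome, averaged 175 ± 19.6 CPM in restriction and 152 ± 47.8 CPM in control libraries of set 2, against 731 ± 58.3 CPM and 728 ± 18.1 CPM in the restriction and control libraries of set 1. It was lower by -2.16 ± 0.15 (adjusted p = 8.95e-08), while its muscle paralog Eef1a2 was at 0.17 ± 0.10 (adjusted p = 0.208). Eef1b2 was lower by -0.63 ± 0.10 (adjusted p = 0.000167), Pabpc1, the poly(A)-binding protein, by -0.73 ± 0.14 (adjusted p = 0.00118), and Rack1, a scaffold protein on the small subunit, by -0.36 ± 0.12 (adjusted p = 0.0272). Eef2, the translocase, was at -0.15 ± 0.10 (adjusted p = 0.258).

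Among 30 initiation factors 7 were higher and 7 lower, shares near those over all genes (19.9% higher and 19.6% lower). The members of the eIF3 complex Eif3l and Eif3m were lower, by -0.73 ± 0.10 (adjusted p = 4.34e-05) and -0.81 ± 0.11 (adjusted p = 5.38e-05), and the scaffold Eif4g1 was higher, by 1.39 ± 0.21 (adjusted p = 0.000116). Of 37 ribosome biogenesis factors 2 were higher and 4 lower, smaller shares than over all genes, and the lower ones included the snoRNP proteins Gar1 (-1.09 ± 0.16, adjusted p = 9.33e-05) and Nop58 (-0.69 ± 0.12, adjusted p = 0.00046). Of 17 RNA polymerase I and 5S RNP genes 6 were higher and 2 lower, and Polr1b, a core subunit of the polymerase that makes ribosomal RNA, was higher by 1.18 ± 0.17 (adjusted p = 0.000101).

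Of 22 regulators of mTORC1 and of TOP messenger RNAs, 11 were higher in set 2 and none was lower, with a median of 0.32. Deptor, an inhibitory partner of mTOR, averaged 92.2 ± 22.0 CPM in restriction and 74.0 ± 6.32 CPM in control libraries of set 2, against 19.2 ± 4.56 CPM and 16.0 ± 2.39 CPM in the restriction and control libraries of set 1. All libraries of set 2 lay above all of set 1, and it was higher by 2.24 ± 0.15 (adjusted p = 7.01e-08). The translation repressor Eif4ebp2 was higher by 0.91 ± 0.16 (adjusted p = 0.000418), Mtor itself by 0.57 ± 0.12 (adjusted p = 0.0015), Tsc1 by 0.43 ± 0.09 (adjusted p = 0.0017) and Larp1 by 0.34 ± 0.11 (adjusted p = 0.0256). These are transcript levels and give no activity of the kinase.

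**Figure D4:**
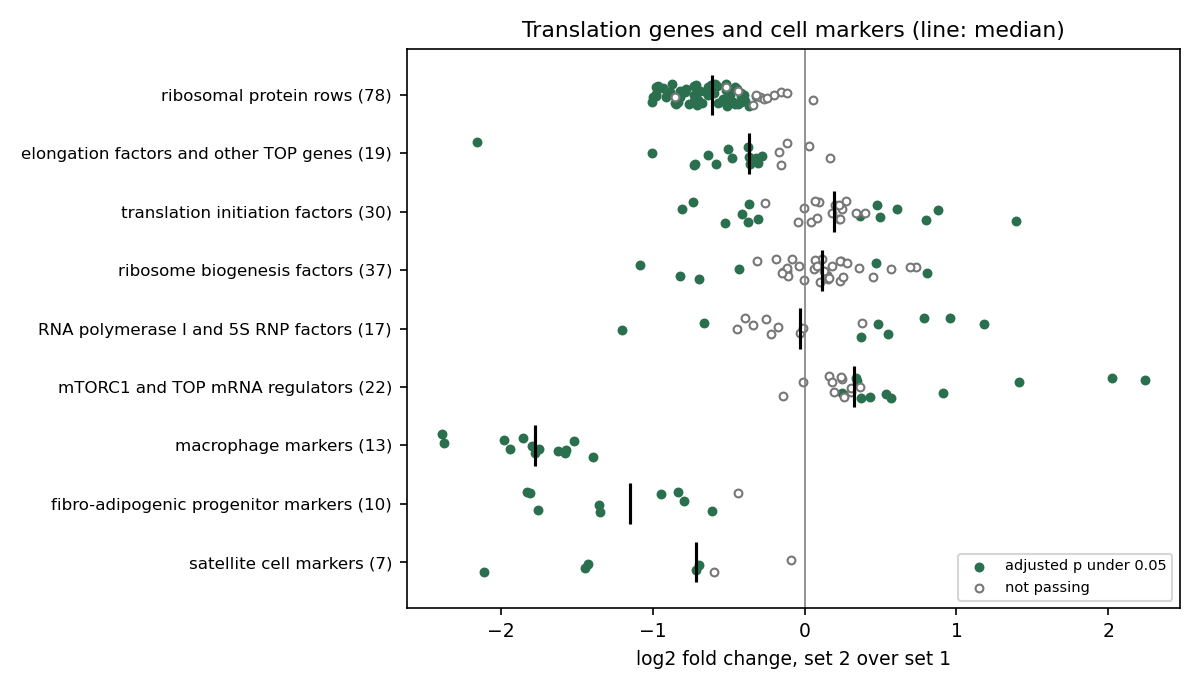
Log2 fold change of set 2 over set 1 (horizontal axis) for each tested gene of the family, of 5 lists of protein synthesis genes and of 3 lists of cell markers, with the number of genes in brackets; filled points pass an adjusted p of 0.05 and black lines are medians. The medians lie at -0.61 for ribosomal proteins, -0.37 for elongation factors and other TOP genes, 0.32 for mTORC1 and TOP regulators and -1.78 for macrophage markers.

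Markers of cells other than muscle fibres also differed between the sets, where 19.6% of all genes were lower and 19.9% higher. All 13 macrophage markers were lower in set 2, with a median of -1.78, and summed to 69.9 to 131 CPM in restriction and 74.8 to 144 CPM in control libraries of set 2, against 253 to 612 CPM and 260 to 459 CPM in the restriction and control libraries of set 1. Of 10 fibro-adipogenic progenitor markers 9 were lower, with a median of -1.15 and a sum of 733 to 912 CPM in restriction and 543 to 952 CPM in control libraries of set 2, against 1353 to 1725 CPM and 1323 to 1896 CPM in set 1. No marker of either list was at 0 in the libraries. Satellite cell markers were lower for 5 of 7 and adipocyte markers for 8 of 10. Summed adipocyte markers overlapped between the sets, at 832 to 1350 CPM in restriction and 677 to 1565 CPM in control libraries of set 2. In set 1 they reached 921 to 1405 CPM in restriction and 1341 to 2020 CPM in control libraries. Endothelial markers were higher for 4 and lower for 1 of 10, and Schwann cell markers were higher for 3 and lower for 3 of 10. Lymphocyte markers were lower for 1 of 3 and red blood cell markers for 0 of 6. The part of these cells and of the fibre types in the difference in ribosomal protein transcripts was not tested.

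Members with and without a run of at least 6 C or T bases near the start were both mostly lower in set 2. Those with a shorter run include Rpl3, Rps4x and Rpl36a, where a run of 5 holds the start base. Over the whole family 84.6% of rows were lower, and over all tested genes 19.6%. Of the members with a run of at least 6, 40 of 50 were lower, with a median of -0.55. Of the members with a window and a shorter run, 10 of 11 were lower, with a median of -0.70; Rps19, which stands on 2 rows, was left out.

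Maternal protein restriction gave no called change in any ribosomal protein row. No member passed in set 1, in set 2, in their mean or in the difference between them, by edgeR, DESeq2 or limma-voom, while edgeR called 0 higher and 1 lower of all genes (0.00703%) in set 1 and in the mean, and 0 of either direction in set 2 and in the difference. Over all genes limma-voom called 3 lower in set 1 and 0 in the other comparisons. DESeq2 called 12 higher and 26 lower genes in set 1, 20 and 20 in set 2, 22 and 33 in the mean, and 22 and 8 in the difference. Without control libraries 3 and 23, an alternative chosen after seeing the data, edgeR called 46 higher and 80 lower genes in set 1, 0 and 5 in set 2, 57 and 90 in the mean, and 0 in the difference, with no member among them. The smallest adjusted p over members was 0.561 in set 1 and 0.566 in set 2.

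In set 1 most members had a fold change above 0 under restriction, none of them called. Of the 78 rows, 63 had a fold change above 0 (80.8%, against 49.5% of all genes), with a median of 0.12, and 9 were higher and none lower at an unadjusted p under 0.05 (11.5% higher, against 3.35% of all genes higher and 4.2% lower). The count of 9 rested on single libraries: it was 0 without control library 8, 2 without control library 3, 3 without restriction library 15, 4 without restriction library 12 or 13, and 21 without control library 23, which lies outside the contrast and enters only the shared spread and scaling. The median lay between 0.08 and 0.16 in the fits that leave out 1 library. Without restriction library 12, 2 members were lower at an unadjusted p under 0.05. Fitting the 6 libraries of set 1 alone in edgeR gave 20 higher and 1 lower at that level. The smallest adjusted p over members was 0.233 in that fit. The 3 restriction libraries lay above the 3 control libraries for 26 members (33.3%, against 7.97% of all genes) and below them for 3 (3.85%, against 9.6%). Mitochondrial ribosomal and transfer RNA took 4.48% to 5.10% of the counts in the restriction libraries and 2.52% to 3.13% in the control libraries of set 1. Without those rows 63 members were above 0 and the median was 0.12. Adipocyte markers had 0 of 10 fold changes above 0 in set 1 with a median of -0.63 and no call, and summed to 920.6 to 1405 CPM in restriction and 1341 to 2020 CPM in control libraries. Macrophage markers had 11 of 13 fold changes above 0 with a median of 0.35, with the summed levels given above. Schwann cell markers had 8 of 10 above 0 with a median of 0.27, and summed to 159 to 205 CPM in restriction and 128 to 204 CPM in control libraries. Fast-fibre genes had 9 of 14 above 0 with a median of 0.33, and summed to 14510 to 17170 CPM in restriction and 8871 to 13220 CPM in control libraries. None of these genes was called, and the part of these lists in the members' values was not tested.

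The members with the smallest p in set 1 were Rpl10a, Rpl12 and Rpl10. Rpl10a, which forms the mobile L1 stalk, had 332, 308 and 253 CPM in restriction libraries, against 192, 193 and 257 CPM in control libraries, a fold change of 0.48 ± 0.18 (unadjusted p = 0.017, adjusted p = 0.561). The groups overlap, since control library 9 lay above restriction library 15. For Rpl12 the values given above did not overlap between diets, with a fold change of 0.48 ± 0.18 (adjusted p = 0.576). Rpl10 had 619, 476 and 521 CPM in restriction libraries, against 418, 365 and 443 CPM in control libraries, with no overlap and a fold change of 0.40 ± 0.17 (adjusted p = 0.600). In the other direction the smallest p belonged to Rps19 on its first row at -0.29 ± 0.23, Rpl24, a protein of a bridge between the subunits, at -0.21 ± 0.17, and Rpl35 at -0.14 ± 0.14, with adjusted p of 0.792, 0.800 and 0.848.

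In set 2 most members had a fold change below 0 under restriction, and the size of this lean rested on control library 23. Of the 78 rows, 72 had a fold change below 0 (92.3%, against 51.5% of all genes), with a median of -0.21, and 2 were lower and none higher at an unadjusted p under 0.05 (2.56% lower, against 4.19% of all genes lower and 4.4% higher). Without control library 23, 42 were below 0 and 36 above, and the median was -0.01. The count of 2 was 13 without control library 28 and 11 without control library 29. Under library size alone, which moved the median of all genes to 0.09, the members' median was -0.08 with 62 below 0. The restriction libraries lay below the control libraries for 9 members (11.5%, against 5.72% of all genes). Red blood cell markers had 0 of 6 fold changes above 0 with a median of -1.69, and summed to 391.5 to 515 CPM in restriction and 740 to 2458 CPM in control libraries, the highest being library 23. Slow-fibre genes had 1 of 13 above 0 with a median of -0.50, and summed to 10090 to 15000 CPM in restriction and 16000 to 21810 CPM in control libraries. Fast-fibre genes had 4 of 14 above 0 with a median of -0.28. They summed to 167900 to 198600 CPM in restriction and 166500 to 212300 CPM in control libraries. Library 23 was the highest of set 2 for both fibre lists. These list values are from the fit with control library 23 in it. None of the genes in these lists was called, and their part in the members' values was not tested.

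Rpl23a, a protein at the exit of the nascent chain tunnel, was high in 1 control library. It had 189, 193 and 200 CPM in restriction libraries 32, 33 and 35, against 429, 187 and 233 CPM in control libraries 23, 28 and 29, a fold change of -0.55 ± 0.24 (unadjusted p = 0.0409, adjusted p = 0.570). Without library 23 it was -0.11 (adjusted p = 0.897). Rpl24 had 255, 267 and 286 CPM in restriction libraries, against 428, 327 and 307 CPM in control libraries, and did not overlap between diets, with a fold change of -0.39 ± 0.17 (adjusted p = 0.566) and -0.23 without library 23 (adjusted p = 0.744). In the other direction Rps27a was at 0.21 ± 0.16, Rps28 at 0.20 ± 0.18 and Rps9 at 0.35 ± 0.50, with adjusted p of 0.706, 0.738 and 0.848.

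**Figure D5:**
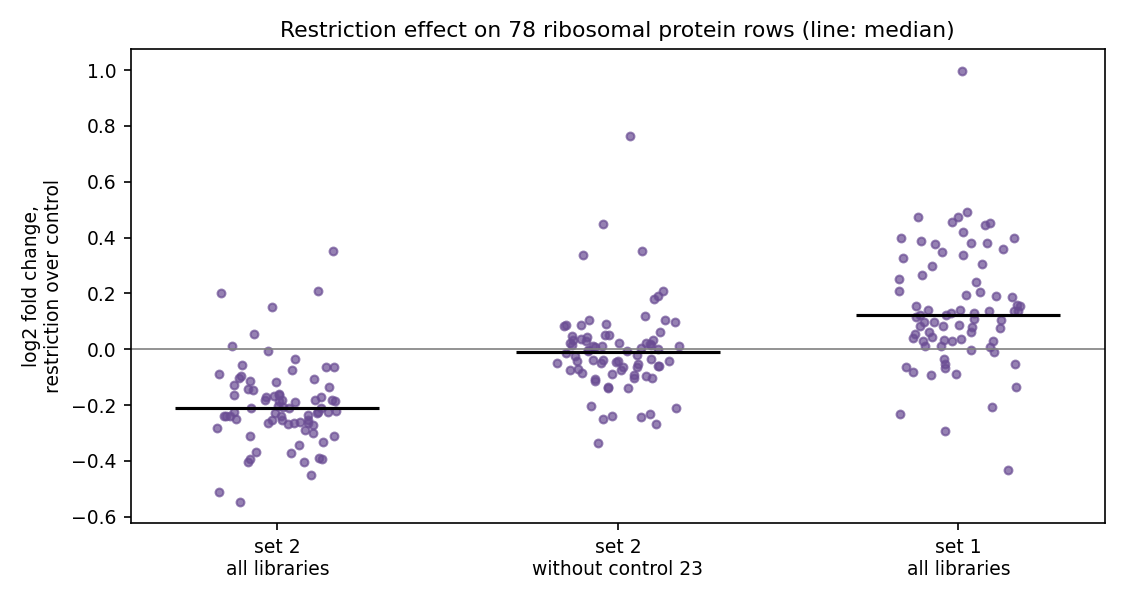
Log2 fold change of restriction over control (vertical axis) for each of the 78 rows in set 2 with all libraries, in set 2 without control library 23, and in set 1 with all libraries; points are spread sideways at random and black lines are medians. The medians are -0.21, -0.01 and 0.12, and no point passes an adjusted p of 0.05.

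The difference between the 2 restriction effects, set 2 minus set 1, was below 0 for 72 of 78 members (92.3%, against 50.2% of all genes), with a median of -0.31, and no member passed. At an unadjusted p under 0.05, 12 members were lower and none higher (15.4% lower, against 4.35% of all genes lower and 5.15% higher), and the smallest adjusted p was 0.445. Without control library 23 the median was -0.15, 65 members were below 0 and 7 passed an unadjusted p of 0.05; without control library 28 that count was 22. The same difference was above 0 for 10 of 10 adipocyte markers (median 0.96), for 2 of 13 macrophage markers (median -0.50), for 1 of 6 red blood cell markers (median -1.18) and for 4 of 14 fast-fibre genes (median -0.58), none of them called, and their part was not tested. These list values are from the fit with control library 23 in it. Among members, Rpl9 had the smallest p. It had 127, 148 and 140 CPM in restriction libraries and 263, 126 and 160 CPM in control libraries of set 2, against 363, 330 and 324 CPM in restriction libraries and 224, 246 and 253 CPM in control libraries of set 1. Its difference was -0.90 ± 0.30 (unadjusted p = 0.0098, adjusted p = 0.445). Rpl6 was at -0.79 ± 0.27 (adjusted p = 0.446) and Rpl39 at -0.80 ± 0.29 (adjusted p = 0.458). Without control library 23 the set 2 restriction effect of Rpl9 went from -0.40 to -0.05. That of Rpl6 went from -0.39 to -0.24, and that of Rpl39 from -0.34 to 0.02. On the upward side Rps19 on its first row was at 0.35 ± 0.33, Rpl8 at 0.39 ± 0.55 and Rps9 at 0.41 ± 0.71, none of which passed.

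Averaged over both sets, the restriction effect had a median of -0.05, with 28 members above 0 and 50 below (35.9% and 64.1%, against 48.2% and 51.8% of all genes). At an unadjusted p under 0.05, 1 member was higher and 1 lower (3.58% and 4.25% of all genes); without control library 23 these were 11 and 0. The median was 0.05 without control library 23 and 0.02 under library size alone. The smallest p on the upward side was that of Rps28, at 0.28 ± 0.13 (adjusted p = 0.635), followed by Rpl10a at 0.23 ± 0.12 (adjusted p = 0.687) and Rpl12 at 0.18 ± 0.13 (adjusted p = 0.775). On the downward side it was that of Rpl24, at -0.30 ± 0.12 (adjusted p = 0.570). Rpl4 followed at -0.15 ± 0.09 (adjusted p = 0.746), then Rpl23a at -0.26 ± 0.17 (adjusted p = 0.753). Without control library 23 the set 2 restriction effect of Rpl24 went from -0.39 to -0.23. That of Rpl4 went from -0.21 to -0.14, and that of Rpl23a from -0.55 to -0.11. No gene of the other translation lists, of the fibre lists or of the cell marker lists passed in a diet comparison either. Among 22 mTORC1 and TOP regulators the median restriction effect was -0.13 in set 1 and 0.02 in set 2, and among 19 elongation factors and other TOP genes 0.05 in set 1 and -0.01 in set 2.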

How the data were processed

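Whole-muscle RNA was sequenced after a TruSeq library preparation, which keeps no strand, per the labels' protocols. The authors deposited raw read counts per gene; Trimmomatic, HISAT2, featureCounts, DESeq2 and the build Rnor_6.0 are named in the submitters' processing notes. The sources used here do not give versions, the annotation release or the treatment of reads matching several places. A normalised table was not used.

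Counts were tested in edgeR 4.0.16 (R 4.3.3) by the quasi-likelihood test on all 12 libraries with 4 group means, filterByExpr, TMM scaling and Benjamini-Hochberg adjustment over 14225 genes, with a threshold of 0.05. Levels are CPM on TMM-scaled library sizes, given as mean ± SD or per library; fold changes are log2, ± SE. The code was tested on simulated data. Alternatives were DESeq2 1.42.0, limma-voom (limma 3.58.1), other scalings and filters, and leaving out each library. Library totals of 22829692 to 38313704 counts were recorded, and counting error weighs most on the rows with few counts. Levels were not ordered between genes, because no gene lengths were used here. Copies were matched to RefSeq (GRCr8) by symbol, synonym or gene ID, and start sequences by symbol, for names and sequences only.

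The members and gene lists were chosen with earlier results of these data known. Genes were named by rule: up to 10 called per direction by smallest p, otherwise the 3 smallest p not passing; the 5 highest and 5 lowest rows; textbook roles; paralogs; and up to 4 called per other list. Some genes that this rule takes are not reported here, and 3 family rows are not drawn in the figures that label rows; all counts and medians include them.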

Additional observations from a re-analysis of the deposited data

Results flagged for a closer look

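Rpl7a, a large subunit protein, was the only one of the 78 members for which the 3 restriction libraries lay above the 3 control libraries in one set and below them in the other. This pattern held for 1.42% of all tested genes, so it was no more common in the family than over all genes. It had 17.2, 18.4 and 15.5 CPM in restriction libraries, against 19.6, 18.5 and 22.0 CPM in control libraries of set 2, and 25.8, 24.3 and 22.6 CPM in restriction libraries, against 22.3, 19.3 and 19.5 CPM in control libraries of set 1. The difference between the restriction effects, set 2 minus set 1, was -0.49 ± 0.21 on the log2 scale (edgeR unadjusted p = 0.0379, adjusted p = 0.508), so it did not pass the test over all genes. The margins are narrow in both sets, and Rpl7a has 20 copies named in RefSeq and at most 738 counts in a library.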

How the results depend on the processing

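The members called lower in set 2 numbered 64 to 71 with each library left out in turn (2366 to 3291 over all genes). Of the 66 genes, 64 were called in all 12 of those fits. The members called lower numbered 68 by DESeq2 and 69 by limma-voom. The titles' numbers differ by 20 between the sets. Deviations of such pairs correlated at 0.079 to 0.18, not all above 0.1, so they were not taken as pairs. Yet each of the 6 libraries of set 1 correlated best with its own number among the 3 libraries of its diet in set 2. Whether such libraries share an animal is not labelled, and the restriction effect averaged over both sets treated them as separate. A replicate block on the title numbers gave 68 members lower, and none called in the difference of restriction effects. Within control libraries, 29 lower became 7 to 57 with 1 library left out, 57 under library size alone, 6 with only those libraries fitted and 55 without control libraries 3 and 23, an alternative chosen after seeing the data, as was the addition of copy rows. Single values that changed sign, none of them called, were as follows, with ranges over fits that leave out 1 library. Set 2 against set 1, Rps9 ranged from -0.21 to 0.46 and was -0.061 under library size alone, Rps27l from -0.17 to 0.26, with -0.0087 under library size alone and -0.12 without 3 and 23, and Rpl3l from -0.046 to 0.18, with -0.021 under library size alone. Within control libraries Rpl38 ranged from -0.18 to 0.38, with -0.017 under library size alone and -0.12 without 3 and 23. Rps9 ranged from -0.28 to 0.57 within restriction libraries, from -0.21 to 0.79 for restriction in set 2, and from -0.38 to 0.85 for the difference of effects, with -0.63 without 3 and 23. That difference for Rpl8 ranged from -0.28 to 0.74. The cause was not tested. No diet call arose in a member under the alternatives run. An order of levels by coding length was not run, because no lengths were at hand. Counting error weighs most on rows with few counts, such as the 4 with fewer than 1000 in every library; its part in their missing calls was not tested.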
